A study of Homo sapiens with 8 samples.

Results

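The genes described here are 36 subunits of voltage-gated sodium and calcium channels, taken by symbol from a fixed list of SCN and CACN genes. All 36 were found among the 60286 genes of the deposited count matrix. They comprise the sodium channel alpha subunits SCN1A, SCN2A, SCN3A, SCN4A, SCN7A, SCN8A, SCN9A, SCN10A and SCN11A, the sodium channel beta subunits SCN2B, SCN3B and SCN4B, and the pore-forming calcium channel alpha1 subunits CACNA1A to CACNA1I and CACNA1S. The auxiliary calcium channel subunits are CACNA2D1 to CACNA2D4, CACNB1 to CACNB4, and CACNG2, CACNG3, CACNG4, CACNG5, CACNG7 and CACNG8. The list goes by symbol and sets no threshold on measured values, but it was chosen with earlier results of these data known, so it is not independent of them.

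The study grew neural cultures in 2-D or 3-D from the H1 line of human embryonic stem cells and measured polyA RNA in single cells after papain dissociation and split-pool barcoding. The GEO samples are 8 sublibraries of 1 pool of cells, and the culture of origin is a tag in each cell's name. The 46 tags spell 9 arrangements. Tags of 2DCocu (4 AcCoc, 4 AcMor and 4 Vehic) and of 3DFusi (4 AcCoc, 3 AcMor and 3 Vehic) form 1 pair of formats. Tags of 2DMono and 3DMono (2 AcDop, 2 AcMor and 2 Vehic each) form another pair. The remaining tags name protocols without a treatment word: 2DProto2Fjo, 2DProto3Wu and 2DProto4Nic with 2 tags each, and 3DProto1For and 3DProto2Xia with 3 tags each. The labels list dopamine, cocaine, morphine and untreated cultures but do not tie them to the words AcDop, AcCoc, AcMor and Vehic, which are therefore used as written, as are the arrangement names. All groups share 1 cell line, and a few organoids were dissociated together for a suspension. Nothing states that tags of a group were separate cultures or organoids, so p-values measure only the spread between tags, which may be technical. No dose or duration is given in the sources used here.

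Voltage-gated sodium channels open on depolarization and carry the upstroke of the action potential; the alpha subunit forms the pore, and beta subunits alter its gating and its placement in the membrane. Voltage-gated calcium channels turn depolarization into calcium entry: their alpha1 subunit sets the current type (L, P/Q, N, R or T), alpha2delta and beta subunits bring the pore to the membrane and tune it, and most of the gamma genes measured here encode proteins that mainly accompany AMPA-type glutamate receptors. In developing forebrain these channels support neurotransmitter release, calcium-dependent gene expression and pacemaking, and the balance of subunits changes as neurons mature.

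Several of the genes lie close together or overlap neighbours on the other strand. On GRCh38, 5 of the sodium channel genes lie within 1407 kb of chromosome 2 (165087522 to 166494326). SCN3A, on the minus strand at chr2:165087522-165204067, and SCN2A, on the plus strand at chr2:165194993-165392310, overlap at their ends. CACNG5 (chr17:66835117-66885486) and CACNG4 (chr17:66964910-67033398) are neighbours on the plus strand of chromosome 17, as are CACNG7 (chr19:53909335-53943941) and CACNG8 (chr19:53963040-53990215) on chromosome 19. In the GENCODE v29 annotation 21 of the 36 genes overlap a gene on the opposite strand, and for 10 of them that antisense gene is itself counted in the matrix. The sources used here do not state whether the counting used strand, and reads in such overlaps may have been split between the partners.

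The matrix holds 43693 cells with a median of 12776 counts per cell, and the tags hold 317 to 1959 cells and 3624668 to 58777177 counts. A set of 2393 of the 41192 barcode combinations occurs in more than 1 sublibrary. Pluripotency markers summed to 5.00, 15.4 and 28.4 CPM per tag (lowest, median and highest) and neuron markers to 1748, 2929 and 3937 CPM, so the cells measured carried markers of neurons and few of the stem cells named in the label. The tag 3DProto1For3 stood apart from the other 3DProto1For tags and the tag 3DProto2Xia2 from the other 3DProto2Xia tags. Neuron-like cells made up 21.15% of 3DProto1For3 against 0.6897% and 0.457% of the other 1For tags, and 0.5487% of 3DProto2Xia2 against 39.77% and 31.59% of the other 2Xia tags. Their muscle marker sums were 55.94 CPM and 5718 CPM, so each resembled the other protocol in both measures. Whether the names of these 2 tags were exchanged was not tested, and comparisons of the 3-D protocols use the tags as named. The tags 3DMonoVehic2, 3DFusiAcCoc2, 2DMonoAcMor2 and 3DFusiVehic1 also held muscle markers above 200 CPM (2544, 2015, 445.9 and 275.9 CPM).

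Levels are given below in CPM, counts scaled to a library of 1000000, either of all cells of a tag or of the cells of 1 class in a tag. CPM is not scaled to gene length, so a level is compared between samples or classes for 1 gene at a time. Cells were clustered without the channel genes, and clusters were called "-like" after their marker genes: 7721 cells were excitatory neuron-like, 5631 GABAergic neuron-like and 1147 glycinergic neuron-like, while 13306 cells (30.45%) stayed unnamed. Class levels are a description of these clusters and carry no test. They pool the cells of all clusters of a class, so a single cluster of 1 class can lie above the class named highest.

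Among the sodium channel pores, SCN2A, SCN3A and SCN8A were counted most in the neuron-like classes, whereas SCN1A was not. SCN2A, the main pore of immature axons, stood at 129 CPM in excitatory neuron-like cells, 137 CPM in GABAergic neuron-like cells and 239 CPM in a cluster named neuron-like only, against 8.12 CPM in cycling cells. The GABAergic level includes the 2 2DProto3Wu tags, at 230.4 and 248 CPM in 616 and 906 such cells, which held 0 excitatory neuron-like cells. In tags that held both classes the order was the reverse, with SCN2A higher in excitatory neuron-like cells in 28 of 29. SCN3A, prominent in fetal brain, ran from 3.15 CPM in neural crest or Schwann-like cells to 86.3 CPM in glycinergic neuron-like cells, and was at 52.4 CPM in intermediate progenitor-like cells. SCN8A, the pore of mature nodes and initial segments, was counted broadly, from 39.2 CPM in muscle-like to 204 CPM in GABAergic neuron-like cells, with 157 CPM in cycling cells. SCN1A, known in adult brain for its role in inhibitory neurons, had its highest pooled levels outside the neuron classes, at 64.8 CPM in ciliated or ependymal-like and 41.7 CPM in progenitor-like cells, against 20.7 CPM in GABAergic and 7.13 CPM in excitatory neuron-like cells. In ciliated or ependymal-like cells the tag values of SCN1A ran from 26.1 to 114 CPM, and in GABAergic neuron-like cells from 2.097 to 47.4 CPM, so these 2 ranges overlap.

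Of the sodium channels known from peripheral nerve and muscle, SCN9A, SCN7A and SCN4A had their highest pooled levels in minor classes outside neurons, and SCN10A and SCN11A in neuron-like classes. SCN9A, a pore of sensory and sympathetic neurons, reached 195 CPM in the neural crest or Schwann-like cells, a class with 20 or more cells in only 1 tag, against at most 34.9 CPM in any other class. SCN7A, which encodes the sodium-sensing channel Nax, was at 62.5 CPM in muscle-like, 39.3 CPM in neural crest or Schwann-like and 12.1 CPM in mesenchymal-like cells, and below 5 CPM in every other named class. SCN4A, the skeletal muscle pore, stood at 4.29 CPM in muscle-like cells and at or below 0.244 CPM in every other named class. SCN10A, a nociceptor pore, did not exceed 1.15 CPM in any class, its level in excitatory neuron-like cells. In these cells 1 tag, 3DMonoVehic1, read 13.14 CPM, while the median of the 29 tags holding both classes was 0 CPM. SCN11A, also known from nociceptors, ran from 5.84 CPM in astrocyte-like cells to 30.4 CPM in the neuron-like cluster, with 12.5 CPM in muscle-like cells. Of the beta subunits, SCN3B was spread over the neuron classes (78.03 CPM in excitatory and 58.2 CPM in GABAergic neuron-like cells). SCN4B, whose product also supplies the blocking particle of resurgent current, stood at 35.9 CPM in the neuron-like cluster and at most 6.16 CPM in every other class, and SCN2B was below 3 CPM throughout.

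Among the calcium channel pores, CACNA1E and CACNA1A were concentrated in excitatory neuron-like cells. CACNA1E, the R-type pore, was at 1015 CPM in excitatory neuron-like cells (594 to 1903 CPM over 41 tags) against 213 CPM in GABAergic and 397 CPM in glycinergic neuron-like cells. Excitatory neuron-like cells held 54.3% of all CACNA1E counts and 16.09% of the counts of all genes. CACNA1A, the P/Q-type pore of presynaptic terminals, stood at 442 CPM in excitatory, 328 CPM in glycinergic and 115 CPM in GABAergic neuron-like cells. CACNA1B, the N-type presynaptic pore, was highest in glycinergic neuron-like cells at 319 CPM, while in excitatory and GABAergic neuron-like cells it stood at 153 and 147 CPM. The L-type pore CACNA1C was present in every class, at pooled levels from 50.4 CPM to 784 CPM, with 587 CPM in mesenchymal-like cells. CACNA1D, the L-type pore that opens at lower voltage, ran from 16.2 CPM in astrocyte-like cells to 209.7 CPM in the neuron-like cluster and was at 157 CPM in mesenchymal-like cells. The T-type pores CACNA1G and CACNA1I were highest in glycinergic neuron-like cells (67.8 CPM) and in the neuron-like cluster (21.9 CPM) as pooled, but CACNA1G reached 86.04 and 78.91 CPM in mesenchymal-like clusters 10 and 33 and CACNA1I 30.31 CPM in GABAergic neuron-like cluster 17, and the T-type pore CACNA1H ran from 14.4 to 105 CPM. CACNA1F, the retinal L-type pore, stayed at or below 0.570 CPM.

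Muscle-like cells were only 382 of the 43693 cells, in 4 tags with 20 or more of them, yet they held most counts of CACNA1S, the L-type pore that senses voltage for contraction in skeletal muscle. CACNA1S stood at 90.2 CPM in them (71.4 to 174 CPM over 4 tags) and at or below 1.68 CPM in every other class. These cells held 68% of all CACNA1S counts and 1.13% of the counts of all genes. The whole-tag level of CACNA1S accordingly reached 23.9, 15.3, 12.4, 12.2, 11.2 and 5.58 CPM in 6 of the 7 tags with muscle marker sums over 200 CPM, against a median of 0.508 CPM over all 46 tags. CACNA2D4, a subunit known from photoreceptors, stood at 50.7 CPM in muscle-like cells and below 5 CPM in every other class, CACNA2D1, which also pairs with the skeletal muscle pore, at 939 CPM, and CACNB1, the skeletal muscle beta subunit, at 62.6 CPM against 29.04 CPM in excitatory neuron-like cells. The CACNA1S promoter is printed because its counts lay mostly in 1 class: RefSeq's 300-base window around its start (GRCh38.p14, chr1:201112377-201112676, minus strand) holds 1 copy of CAGCTG, an E-box of the kind that myogenic factors bind, shown in capitals.
CACNA1S: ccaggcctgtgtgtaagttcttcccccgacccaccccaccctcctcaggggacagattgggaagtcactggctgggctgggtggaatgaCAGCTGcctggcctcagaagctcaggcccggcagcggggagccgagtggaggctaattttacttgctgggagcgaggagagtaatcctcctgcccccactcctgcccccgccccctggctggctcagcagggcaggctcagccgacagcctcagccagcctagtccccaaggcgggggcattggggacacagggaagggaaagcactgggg
CAGCTG reads the same on both strands. It occurred in 10 of the 25 member promoters that the RefSeq table holds and in 17.9% of its 35116 promoters, so the match is a description of these letters and not of a bound site.

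The auxiliary calcium channel subunits divided the classes further. CACNA2D1, the alpha2delta subunit that binds gabapentin, was highest in intermediate progenitor-like cells at 1934 CPM (1233 to 2524 CPM over 12 tags), above 723 CPM in excitatory and 183 CPM in GABAergic neuron-like cells. CACNA2D2 was at 68.7 CPM in GABAergic and 21.2 CPM in excitatory neuron-like cells, and CACNA2D3 at 588 CPM in neural crest or Schwann-like cells against 9.202 CPM in progenitor-like cells. Among the beta subunits, CACNB4 stood at 401 CPM in excitatory neuron-like cells (58.99 to 1108 CPM over 41 tags), which held 45.5% of its counts, and CACNB2 had its highest pooled levels outside neurons, at 333 CPM in ciliated or ependymal-like cells and 252 CPM in astrocyte-like cells. The excitatory level of CACNB4 pools clusters far apart: it was 741.2 and 1074 CPM in clusters 1 and 16, which came mostly from 2DMono and 2DCocu, against 169 and 59.86 CPM in clusters 0 and 18. CACNB2 stood at 360 and 427.1 CPM in clusters 1 and 16, above its ciliated or ependymal-like level. CACNB3 ran from 4.49 to 25.6 CPM. Of the AMPA receptor companions, CACNG2 (stargazin) and CACNG3 had their highest pooled levels in glycinergic neuron-like cells, at 90.5 and 40.4 CPM, while CACNG2 stood at 185.9 CPM in excitatory neuron-like cluster 16 and 91.09 CPM in GABAergic neuron-like cluster 21. CACNG4 was counted in progenitors as in neurons (138 CPM in cycling and 153 CPM in GABAergic neuron-like cells). CACNG5 stood at 206 CPM in the neuron-like cluster (216 to 247 CPM over the 3 tags with 20 or more of these cells) and at most 86.1 CPM in any other class as pooled. It reached 171.2 CPM in astrocyte-like cluster 34, 123.6 CPM in intermediate progenitor-like cluster 37 and 119.9 CPM in cycling cluster 7. CACNG7 and CACNG8 ran from 5.23 to 49.9 CPM and from 4.62 to 61.6 CPM.

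**Figure D1:**
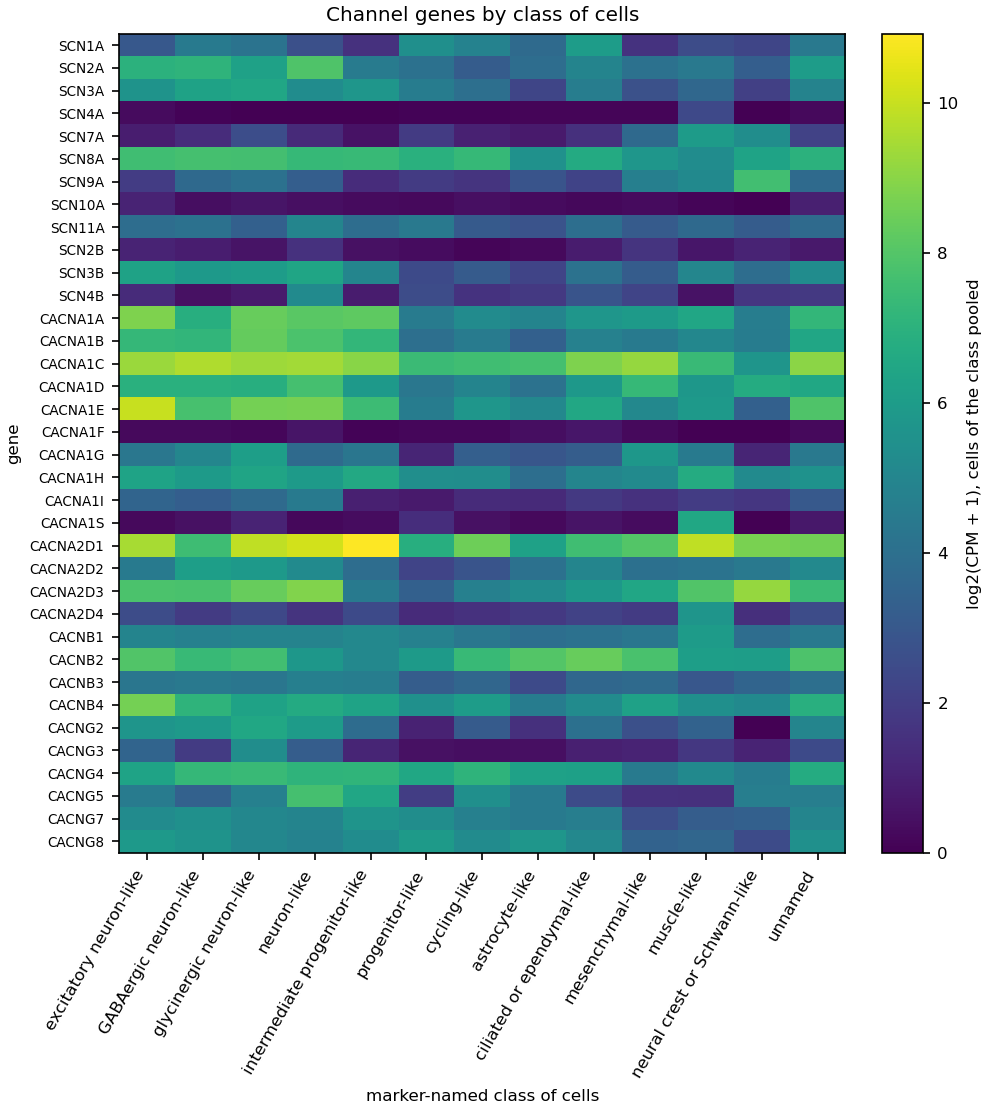
Pooled level of each of the 36 genes (rows) in each cell class (columns), as CPM of the summed counts of the class, coloured by log2(CPM + 1). CACNA1S stands at 90.2 CPM in muscle-like cells and CACNA1E at 1015 CPM in excitatory neuron-like cells.

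Excitatory and GABAergic neuron-like cells could be set side by side in the 29 tags that held 20 or more cells of each. In every one of the 29 tags CACNA1A, CACNA1B, CACNA1E and CACNA2D1 were higher in the excitatory neuron-like cells, and CACNG4 was higher in the GABAergic neuron-like cells. The median of the within-tag difference on the log2(CPM + 1) scale was 2.57 for CACNA1E (SD 0.52 over tags), with tag levels of 594 to 1903 CPM against 62.2 to 287 CPM, which do not overlap. It was 2.24 (SD 0.54) for CACNA1A and 1.84 (SD 1.13) for CACNA2D1, and only 0.45 (SD 0.28) for CACNA1B. SCN2A was higher in excitatory neuron-like cells in 28 tags (median difference 0.92), CACNG3 in 27 (2.36), SCN3B in 26 (0.80) and CACNB2 in 25 (0.82). The GABAergic neuron-like side was led by CACNG4 (-1.31, SD 0.36), followed by SCN1A, higher there in 28 tags (-1.24), by SCN3A, CACNA2D2 and CACNG7, each in 26 tags (-0.61, -1.19 and -0.41), and by CACNA2D3 in 25 tags (-1.33). CACNA1D, CACNB1, CACNA1H and CACNB3 differed little in the median (0.13, 0.08, 0.05 and -0.08). These classes were made by clustering the same cells, so no test is given.

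**Figure D2:**
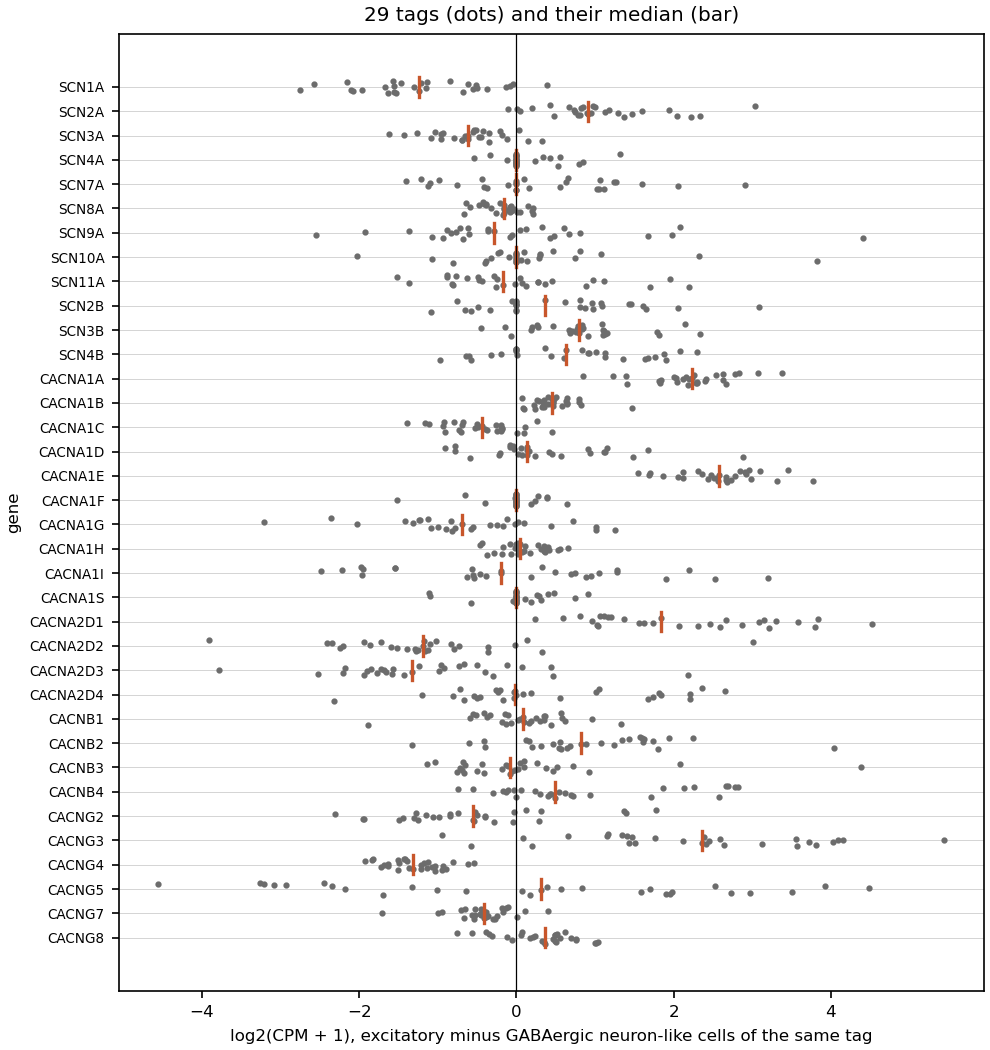
Within-tag difference between excitatory and GABAergic neuron-like cells, in log2(CPM + 1), for each gene over 29 tags; each point is 1 tag and each bar the median. All 29 points of CACNA1A, CACNA1B, CACNA1E and CACNA2D1 lie above 0 and all 29 of CACNG4 below it.

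The format comparisons asked which subunits differ between 3-D and 2-D cultures. Counts were summed per tag and tested by quasi-likelihood in edgeR, treatment being a covariate, with Benjamini-Hochberg adjustment over all genes tested and a threshold of 0.05. A sum over a tag cannot tell fewer cells of a type from less RNA per cell. Between 3DMono and 2DMono, 16 of the 31 members tested passed (6 higher and 10 lower in 3DMono), where 38.8% of all 20190 genes tested passed (18% higher and 20.8% lower). Between 3DFusi and 2DCocu, 14 of 31 passed (7 higher and 7 lower in 3DFusi), where 49.4% of 20930 genes passed (26.7% higher and 22.7% lower). The 3DFusi tags of 1 number deviated together, so the 10 tags are not independent. With the tags of each arrangement summed per number, chosen after seeing the data, 14 members passed between 3DFusi and 2DCocu, 11 of them shared, where 28.8% of genes passed; SCN4B, CACNA1C and CACNG4 did not (adjusted p 0.0597, 0.184 and 0.144). The shares of members are of the same order as the background, and the median log2 difference of the members (-0.05 and -0.11) lay near that of all genes (0.03 and 0.05). SCN4A, SCN10A, SCN2B, CACNA1F and CACNA1S were too low to be tested in either. In the next paragraphs tag values are the lowest, median and highest of 6 3DMono and 6 2DMono tags, or of 10 3DFusi and 12 2DCocu tags. Overlap of tags is described here and below for members only, and was not counted over all genes.

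The beta subunits CACNB2 and CACNB4, which carry the pore to the membrane, were lower in 3-D in both pairs. CACNB4 read 90.9, 109 and 132 CPM in 3DMono and 274, 344 and 462 CPM in 2DMono (log2 difference -1.89, SE 0.13, adjusted p 1.14e-07). In the other pair CACNB4 read 50.3, 76.6 and 112 CPM in 3DFusi and 114, 196 and 399 CPM in 2DCocu (log2 difference -1.46, SE 0.17, adjusted p 4.14e-07). In both pairs every 3-D tag of CACNB4 lay below every 2-D tag, though between 3DFusi and 2DCocu the margin was small (112 against 114 CPM). CACNB2 read 85.2, 120.4 and 133 CPM in 3DMono and 286, 321 and 413 CPM in 2DMono (log2 difference -1.69, SE 0.11, adjusted p 6.07e-08), again without overlap. In 3DFusi CACNB2 read 114, 193 and 299 CPM against 263, 315 and 427 CPM in 2DCocu (log2 difference -0.85, SE 0.12, adjusted p 4.69e-06), where the tags overlap. CACNB3, a beta subunit common in brain, moved the other way: it read 12.6, 16.6 and 24.7 CPM in 3DMono against 6.67, 7.98 and 12.7 CPM in 2DMono (log2 difference 0.82, SE 0.16, adjusted p 0.000938). It read 7.96, 14.7 and 25.4 CPM in 3DFusi against 6.76, 10.6 and 13.4 CPM in 2DCocu (log2 difference 0.54, SE 0.16, adjusted p 0.00688), and its tags overlap in both pairs. CACNB1 did not pass in either pair (log2 differences 0.50 and -0.11).

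Among the alpha2delta subunits, CACNA2D3 and CACNA2D1 fell in 3DMono. CACNA2D3 read 80.01, 91.8 and 129 CPM in 3DMono and 194, 229 and 294 CPM in 2DMono (log2 difference -1.50, SE 0.12, adjusted p 2.68e-07), without overlap. In 3DFusi the difference of CACNA2D3 from 2DCocu was -0.25 (adjusted p 0.111) and did not pass. CACNA2D1 read 334, 454 and 616 CPM in 3DMono and 351, 608 and 790.3 CPM in 2DMono (log2 difference -0.58, SE 0.21, adjusted p 0.0383), and 291, 350.2 and 464 CPM in 3DFusi against 354, 495 and 557 CPM in 2DCocu (log2 difference -0.54, SE 0.08, adjusted p 5.98e-06). The tags of CACNA2D1 overlap in both pairs, and with the Vehic tags alone its difference between 3DMono and 2DMono was -0.00 (adjusted p 0.992). CACNA2D2 and CACNA2D4 passed in neither.

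Of the gamma genes, CACNG5 showed the largest difference of the called members in both pairs. CACNG5 read 5.67, 8.35 and 11.5 CPM in 3DMono and 26.9, 32.2 and 52.8 CPM in 2DMono (log2 difference -2.33, SE 0.21, adjusted p 1.24e-06), without overlap, and 4.28, 6.47 and 17.4 CPM in 3DFusi against 15.4, 20.4 and 38.3 CPM in 2DCocu (log2 difference -1.61, SE 0.19, adjusted p 3.73e-07), with overlap. CACNG3 was higher in 3DMono, at 1.34, 7.01 and 9.04 CPM against 0.882, 1.66 and 3.62 CPM in 2DMono (log2 difference 1.75, SE 0.45, adjusted p 0.00687), with overlapping tags. CACNG2, stargazin, fell from 25.1, 33.5 and 38.5 CPM in 2DMono to 12.6, 23.9 and 31.2 CPM in 3DMono (log2 difference -0.77, SE 0.24, adjusted p 0.0203), again with overlap. CACNG7 read 30.3, 37.2 and 45.5 CPM in 3DMono and 20.8, 26.3 and 28.2 CPM in 2DMono (log2 difference 0.38, SE 0.12, adjusted p 0.0238); its tags do not overlap, but with the Vehic tags alone the difference was -0.03. CACNG4 passed in the other pair only, at 43.6, 95.9 and 126 CPM in 3DFusi against 83.2, 115 and 139.7 CPM in 2DCocu (log2 difference -0.38, SE 0.14, adjusted p 0.0244). CACNG8 passed in neither pair.

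Of the calcium channel pores, those called differed between the pairs. CACNA1B, the N-type pore, rose in 3DMono, where it read 84.6, 103 and 114 CPM against 34.8, 51.2 and 68.6 CPM in 2DMono (log2 difference 0.77, SE 0.13, adjusted p 0.000325), without overlap. The T-type pores CACNA1G and CACNA1I and the L-type pore CACNA1C fell in 3DMono with overlapping tags. CACNA1G read 10.96, 12.04 and 21.8 CPM in 3DMono against 16.3, 17.9 and 24.3 CPM in 2DMono (log2 difference -0.54, SE 0.18, adjusted p 0.0336), CACNA1I 3.28, 4.37 and 7.46 CPM in 3DMono against 3.84, 7.54 and 10.5 CPM in 2DMono (log2 difference -0.80, SE 0.28, adjusted p 0.0342), and CACNA1C 405, 471 and 534 CPM in 3DMono against 417, 534 and 595 CPM in 2DMono (log2 difference -0.35, SE 0.10, adjusted p 0.011). In 3DFusi CACNA1C was slightly higher instead, at 449, 564 and 641 CPM against 376, 433 and 492 CPM in 2DCocu (log2 difference 0.24, SE 0.07, adjusted p 0.0076). CACNA1D, the low-voltage L-type pore, rose to 55.6, 94.1 and 134 CPM in 3DFusi from 50.96, 59.1 and 69.9 CPM (log2 difference 0.59, SE 0.10, adjusted p 6.84e-05). CACNA1E, the R-type pore, fell to 116, 189 and 349 CPM from 218, 372 and 498 CPM (log2 difference -0.86, SE 0.20, adjusted p 0.00121), and CACNA1A, the P/Q-type pore, to 70.7, 137 and 150.5 CPM from 125, 159 and 208 CPM (log2 difference -0.43, SE 0.12, adjusted p 0.00574). These 4 genes overlapped between 3DFusi and 2DCocu tags. With the Vehic tags alone the difference was -0.20 for CACNA1E (adjusted p 0.601) and -0.07 for CACNA1A (adjusted p 0.703). CACNA1H passed in neither pair.

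The sodium channel genes were called less evenly. SCN1A fell in 3DMono to 7.97, 10.2 and 15.5 CPM from 13.5, 18.97 and 22.8 CPM in 2DMono (log2 difference -0.98, SE 0.18, adjusted p 0.000662), with overlap. SCN11A rose in both pairs, to 11.7, 13.8 and 16.6 CPM in 3DMono from 6.33, 7.27 and 9.303 CPM (log2 difference 0.72, SE 0.14, adjusted p 0.000913, no overlap) and to 11.6, 12.3 and 14.8 CPM in 3DFusi from 6.01, 7.497 and 13.2 CPM (log2 difference 0.52, SE 0.11, adjusted p 0.00052, overlap). SCN4B rose as well, to 1.304, 2.86 and 5.47 CPM in 3DMono from 0.459, 0.797 and 1.06 CPM (log2 difference 1.82, SE 0.33, adjusted p 0.000572, no overlap) and to 2.12, 2.801 and 6.61 CPM in 3DFusi from 1.24, 1.87 and 2.88 CPM (log2 difference 0.61, SE 0.17, adjusted p 0.00466, overlap). SCN2A rose in 3DFusi, to 39.3, 53.5 and 77.9 CPM from 14.9, 36.2 and 57 CPM in 2DCocu (log2 difference 0.57, SE 0.17, adjusted p 0.00743), and SCN7A to 2.43, 4.86 and 8.36 CPM from 1.24, 2.27 and 6.02 CPM (log2 difference 0.77, SE 0.24, adjusted p 0.0108); both overlap. SCN3A, SCN8A, SCN9A and SCN3B passed in neither pair.

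The make-up of the sums moved with format too. In 3DMono, 6 of 7 tested astrocyte markers were lower (median log2 difference -1.63) and none higher. Mesenchymal markers summed to 156.5 to 588.1 CPM in 3DMono and 561.8 to 1531 CPM in 2DMono, with 3 of 8 lower and 2 higher. In 3DFusi all 6 tested GABAergic markers were higher (median 2.71), with 5 of 8 cycling and 4 of 8 mesenchymal markers. Their part in the whole-tag differences was not tested. The sums over 1 class given next hold different clusters in 2-D and 3-D, so cluster and format cannot be told apart there. SCN1A, CACNA1B, CACNA2D3, CACNB2, CACNB4, CACNG3 and CACNG5 between 3DMono and 2DMono, and SCN2A, SCN11A, CACNA1D, CACNB2, CACNB3, CACNB4 and CACNG5 between 3DFusi and 2DCocu, passed under every alternative run. With the Vehic tags alone 9 members passed in each pair, where 14.4% of genes passed between 3DMono and 2DMono and 28.1% between 3DFusi and 2DCocu, and SCN7A, SCN4B, CACNA1A, CACNA1C, CACNA1E and CACNA2D1 lost their call between 3DFusi and 2DCocu, as did SCN11A, SCN4B, CACNA1C and CACNB3 between 3DMono and 2DMono. CACNA1G, CACNA1I, CACNA2D1, CACNG2 and CACNG7 did not keep theirs between 3DMono and 2DMono under 11, 10, 11, 5 and 4 of 19 alternatives. Among calls kept with the Vehic tags alone, the difference moved by over 1.5 times for CACNA1I (-1.21) and CACNG2 (-1.34) in 3DMono and for SCN2A (1.34) and CACNB4 (-0.87) in 3DFusi.

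**Figure D3:**
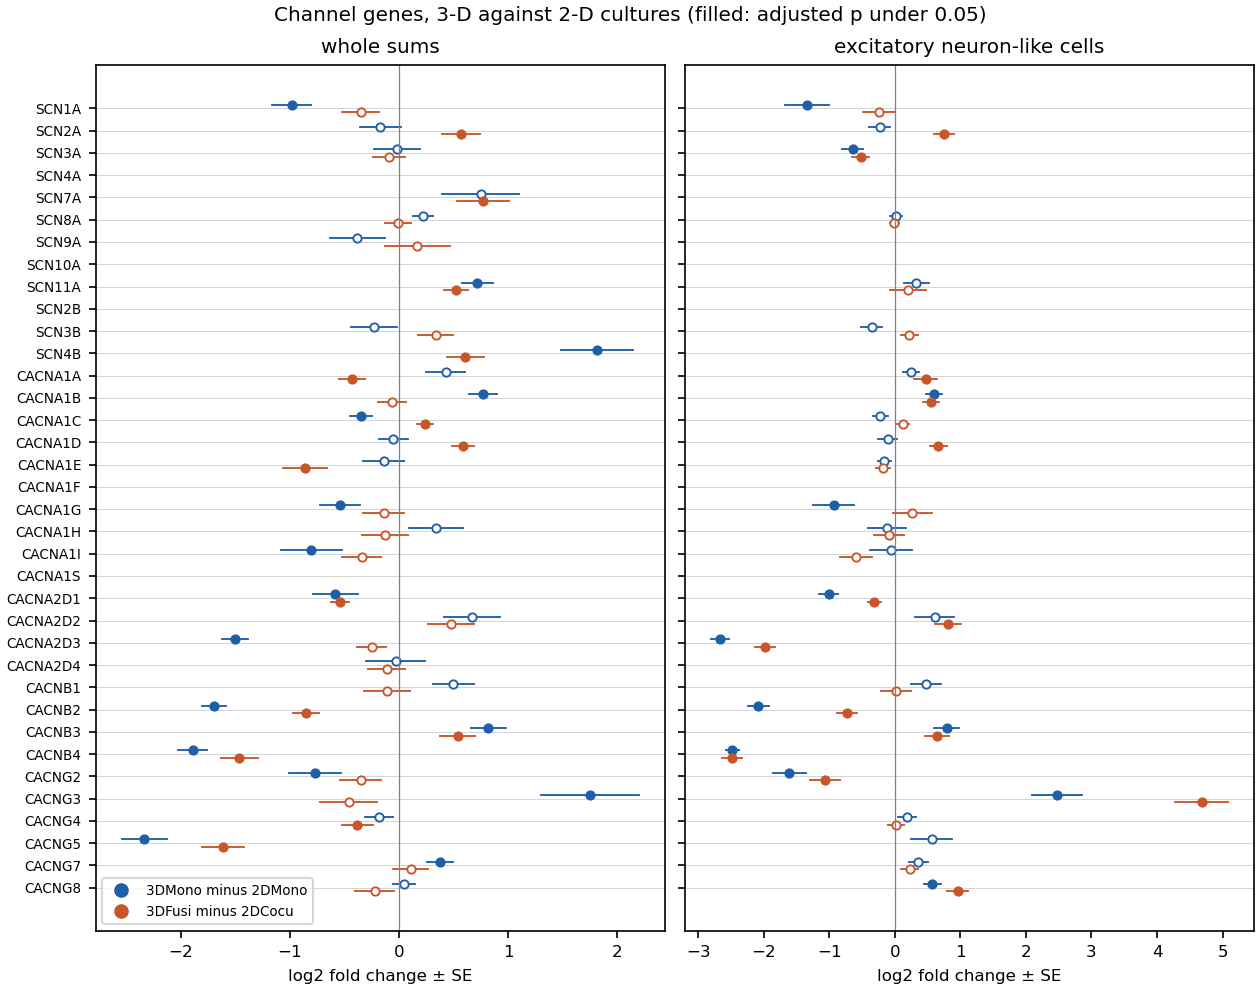
Log2 difference between 3-D and 2-D tags for each gene, with its standard error, in both pairs of arrangements (blue and orange), in the sums over all cells (left) and over excitatory neuron-like cells (right); filled points passed the test. CACNB4 lies below 0 in both pairs, at -1.89 and -1.46 in the sums over all cells.

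Within excitatory neuron-like cells the same question was asked of 1 class. In 2DMono 71.96% of these cells came from 1 cluster and 27.98% from another (clusters 1 and 16). In 2DCocu 77.34% and 22.08% came from the same clusters. In 3DMono 99.43% and in 3DFusi 93.18% came from a different one (cluster 0). Cluster and format therefore cannot be told apart within this class. Between 3DMono and 2DMono 12 of 27 members tested passed (4 higher and 8 lower), where 31.3% of all genes tested passed (14% higher and 17.3% lower), with a median log2 difference of -0.11 for members and 0.01 for all genes. Between 3DFusi and 2DCocu 14 of 26 passed (8 higher and 6 lower), where 41.5% of all genes passed (21.1% higher and 20.4% lower), with medians of 0.07 and 0.02. Tag values below are in CPM of the excitatory neuron-like cells.

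In this class CACNB4, CACNA2D3 and CACNG3 differed without overlap in both pairs. CACNB4 read 158, 187 and 239 CPM in 3DMono and 849, 963 and 1108 CPM in 2DMono (log2 difference -2.48, SE 0.10, adjusted p 1.93e-12), and 67.9, 139 and 194 CPM in 3DFusi against 536, 739 and 1076 CPM in 2DCocu (log2 difference -2.48, SE 0.15, adjusted p 5.32e-13). CACNA2D3 read 61.8, 74.8 and 101 CPM in 3DMono and 350.4, 435 and 577 CPM in 2DMono (log2 difference -2.67, SE 0.14, adjusted p 5.72e-11), and 38.8, 111 and 161 CPM in 3DFusi against 325, 445 and 547 CPM in 2DCocu (log2 difference -1.98, SE 0.15, adjusted p 9.07e-11). So CACNA2D3, not called between the 3DFusi and 2DCocu sums over all cells, was lower in 3DFusi inside this class. CACNG3, an AMPA receptor companion of cortical excitatory neurons, was higher in 3-D: it read 5.84, 15.1 and 24.9 CPM in 3DMono against 0.749, 1.65 and 4.301 CPM in 2DMono (log2 difference 2.47, SE 0.38, adjusted p 6.31e-05). In the other pair CACNG3 read 10.7, 22.4 and 79.4 CPM in 3DFusi against 0, 0.368 and 6.63 CPM in 2DCocu (log2 difference 4.68, SE 0.40, adjusted p 1.04e-09).

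The other auxiliary subunits called in excitatory neuron-like cells mostly went the same way in both pairs. CACNB2 read 87.3, 133 and 141 CPM in 3DMono and 325, 468 and 758 CPM in 2DMono (log2 difference -2.08, SE 0.16, adjusted p 2.23e-08, no overlap), and 119.8, 185 and 330.3 CPM in 3DFusi and 266, 322 and 435 CPM in 2DCocu (log2 difference -0.73, SE 0.15, adjusted p 0.000317, overlap). CACNB3 read 16.2, 19.01 and 30.3 CPM in 3DMono and 7.49, 11.04 and 15.96 CPM in 2DMono (log2 difference 0.79, SE 0.19, adjusted p 0.00336, no overlap) and 15.8, 18.8 and 38.9 CPM in 3DFusi and 6.81, 13.2 and 18.7 CPM in 2DCocu (log2 difference 0.64, SE 0.18, adjusted p 0.00561, overlap). CACNG2 read 19.7, 28.9 and 33.7 CPM in 3DMono and 43.2, 66.5 and 150.5 CPM in 2DMono (log2 difference -1.61, SE 0.25, adjusted p 0.000201, no overlap), then 21.4, 31.6 and 81.1 CPM in 3DFusi and 60.2, 84.3 and 208 CPM in 2DCocu (log2 difference -1.06, SE 0.23, adjusted p 0.000649, overlap). CACNB2 and CACNG2 thus fell in 3-D in both pairs and CACNB3 rose. With the Vehic tags alone CACNG2 passed in both, CACNB3 in neither (adjusted p 0.212 and 0.216) and CACNB2 in 3DMono only (adjusted p 0.185 in 3DFusi). CACNA2D1 read 489.5, 644 and 770.3 CPM in 3DMono and 913, 1158 and 1447 CPM in 2DMono (log2 difference -1.01, SE 0.14, adjusted p 2.91e-05, no overlap) and 519, 646 and 964 CPM in 3DFusi and 638, 753 and 1119 CPM in 2DCocu (log2 difference -0.31, SE 0.10, adjusted p 0.0159, overlap). CACNG8 read 67.8, 73.5 and 94.3 CPM in 3DMono and 34.1, 44.5 and 58.3 CPM in 2DMono (log2 difference 0.57, SE 0.13, adjusted p 0.00184, no overlap) and 53.7, 73.5 and 121 CPM in 3DFusi and 17.03, 37.9 and 55.8 CPM in 2DCocu (log2 difference 0.96, SE 0.16, adjusted p 2.5e-05, overlap). CACNA2D2 passed in the second pair only, at 9.36, 21.5 and 38.6 CPM in 3DFusi against 7.21, 11.6 and 22.7 CPM in 2DCocu (log2 difference 0.81, SE 0.20, adjusted p 0.00213). With the Vehic tags alone CACNA2D1 and CACNA2D2 did not pass in 3DFusi (adjusted p 0.213 and 0.503) nor CACNG8 in 3DMono (adjusted p 0.147). CACNA2D1 in 3DFusi also lost its call without AcCoc tag 1 of 2DCocu.

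Among pores in excitatory neuron-like cells, CACNA1B was higher in 3-D and SCN3A lower in both pairs. CACNA1B read 146, 193 and 204 CPM in 3DMono and 85.8, 114 and 134 CPM in 2DMono (log2 difference 0.60, SE 0.12, adjusted p 0.000549, no overlap), and 123, 167 and 244 CPM in 3DFusi and 63, 119 and 144 CPM in 2DCocu (log2 difference 0.55, SE 0.12, adjusted p 0.000734, overlap). SCN3A read 29.8, 42.6 and 45.4 CPM in 3DMono and 40.9, 55.5 and 72.2 CPM in 2DMono (log2 difference -0.64, SE 0.16, adjusted p 0.00425) in the first pair and 25.5, 47.8 and 62.9 CPM in 3DFusi and 52.2, 64.8 and 75.03 CPM in 2DCocu (log2 difference -0.52, SE 0.13, adjusted p 0.00149) in the second, with overlap in both. Calls of 1 pair only followed. In the first pair SCN1A read 1.01, 2.95 and 9.29 CPM in 3DMono and 5.75, 8.09 and 9.87 CPM in 2DMono (log2 difference -1.34, SE 0.33, adjusted p 0.00363) and CACNA1G 8.47, 11.9 and 23.5 CPM in 3DMono and 15.7, 21.6 and 56.4 CPM in 2DMono (log2 difference -0.93, SE 0.31, adjusted p 0.0345), both lower in 3DMono. In the second pair SCN2A read 78.1, 133 and 159 CPM in 3DFusi and 33.9, 70.3 and 116 CPM in 2DCocu (log2 difference 0.75, SE 0.15, adjusted p 0.000193), CACNA1A 323, 646 and 1013 CPM in 3DFusi and 272, 394 and 576 CPM in 2DCocu (log2 difference 0.47, SE 0.17, adjusted p 0.0269) and CACNA1D 84.05, 133 and 197 CPM in 3DFusi and 67.1, 88.5 and 123 CPM in 2DCocu (log2 difference 0.66, SE 0.13, adjusted p 0.000241), all higher in 3DFusi. The tags of these 5 genes overlap. CACNA1A was therefore lower in 3DFusi in the sums over all cells and higher in 3DFusi inside this class, where it lost its call under 6 of 30 alternatives, as CACNA1G did under 8 of 19. CACNA1A and CACNA1B did not pass in 3DFusi with tags summed per number (adjusted p 0.35 and 0.0876). With the Vehic tags alone 8 members passed between 3DMono and 2DMono, where 10.4% of genes passed, and 7 between 3DFusi and 2DCocu, where 15.3% did. SCN1A and SCN3A then lost their call in 3DMono (adjusted p 0.282 and 0.84) and SCN3A, CACNA1A and CACNA1D in 3DFusi (adjusted p 0.276, 0.28 and 0.381); the difference of SCN3A in 3DMono was -0.10. With clusters at resolution 0.4 it was -0.40 and also did not pass (adjusted p 0.0895). The difference of CACNA1B in 3DFusi ran from 0.36 with tags summed per number to 1.07 with the Vehic tags alone. Of the other calls kept with the Vehic tags alone, the difference moved by over 1.5 times for CACNA1G (-1.41) and CACNA2D1 (-0.48) in 3DMono and for CACNG8 (1.61) in 3DFusi.

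**Figure D4:**
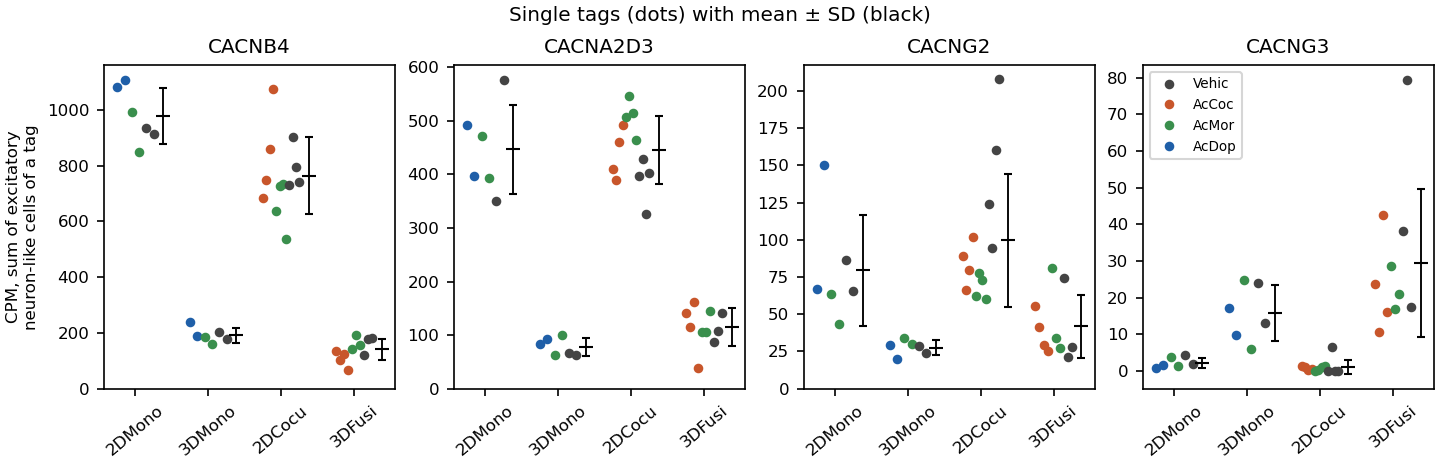
CPM of CACNB4, CACNA2D3, CACNG2 and CACNG3 in the excitatory neuron-like cells of each tag, by arrangement on a linear axis; each point is 1 tag, coloured by treatment word, and black marks give the mean ± SD. CACNG3 stands at 10.7 to 79.4 CPM in 3DFusi tags and at 0 to 6.63 CPM in 2DCocu tags.

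In GABAergic neuron-like cells only the pair 3DMono and 2DMono could be tested, since 2DCocu tags held 0 to 24 of them. Most came from cluster 4 in 3DMono (94.57%) and cluster 17 in 2DMono (94.89%), so cluster and format cannot be told apart here either. Of 25 members tested 10 passed (2 higher and 8 lower), where 21.5% of all genes tested passed (7.9% higher and 13.6% lower), with medians of -0.30 for the members and 0.02 for all genes. CACNG5 was the largest of these, at 0, 1.06 and 3.51 CPM in 3DMono against 24.9, 68.9 and 94.7 CPM in 2DMono (log2 difference -5.68, SE 0.44, adjusted p 2.41e-08). CACNA2D3 read 168, 311 and 385 CPM in 3DMono and 534, 658 and 827 CPM in 2DMono (log2 difference -1.27, SE 0.17, adjusted p 1.51e-05), and CACNA2D1 66.3, 157 and 345 CPM in 3DMono and 256, 574 and 693 CPM in 2DMono (log2 difference -1.80, SE 0.41, adjusted p 0.01). CACNB2 read 83.2, 101 and 115 CPM in 3DMono and 126, 144 and 180.1 CPM in 2DMono (log2 difference -0.64, SE 0.14, adjusted p 0.00169), and CACNB4 97.3, 121 and 193 CPM in 3DMono and 123, 187 and 257 CPM in 2DMono (log2 difference -0.51, SE 0.16, adjusted p 0.0319). The tags of CACNG5, CACNA2D3 and CACNB2 do not overlap between formats, and those of CACNA2D1 and CACNB4 do.

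The pores of GABAergic neuron-like cells divided. CACNA1A rose to 109, 124 and 163 CPM in 3DMono from 32.5, 62.7 and 88.4 CPM (log2 difference 0.90, SE 0.19, adjusted p 0.00133, no overlap) and CACNA1B to 114, 147 and 179.8 CPM from 48.8, 80.8 and 116 CPM (log2 difference 0.68, SE 0.16, adjusted p 0.00485, overlap). CACNA1C fell to 724, 895 and 1139 CPM from 1168, 1266 and 1580 CPM (log2 difference -0.68, SE 0.13, adjusted p 0.000503, no overlap). SCN1A fell to 12, 13.6 and 17.2 CPM from 9.16, 23.1 and 36.2 CPM (log2 difference -0.81, SE 0.26, adjusted p 0.0271) and SCN3B to 16.6, 30.6 and 48.3 CPM from 37.5, 51.6 and 64.3 CPM (log2 difference -0.78, SE 0.26, adjusted p 0.037), both with overlap. CACNB4 and SCN3B lost their call under 10 and 9 of 19 alternatives and SCN1A under 4 of 16, and with the Vehic tags alone 3 members passed, CACNA2D3, CACNG5 and SCN3B, where 7.19% of genes passed, and the difference of CACNA1A was 0.28 (adjusted p 0.751). That of SCN3B was then -1.73, over 1.5 times its value with all tags.

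Whether the format difference itself differed between the pairs was tested as an interaction over their AcMor and Vehic tags. Of 33 members tested 6 passed, where 9.98% of all 23331 genes passed (5.91% higher and 4.06% lower). The interaction is the log2 difference of 3DFusi from 2DCocu minus that of 3DMono from 2DMono. It is given ± its standard error, as differences are from here on where no SE is named. It was 1.21 ± 0.24 for CACNA2D3 (adjusted p 0.00222), 0.92 ± 0.27 for SCN1A (adjusted p 0.0288), 0.83 ± 0.19 for CACNB2 (adjusted p 0.00748) and 0.70 ± 0.21 for CACNB4 (adjusted p 0.037). It was -2.31 ± 0.65 for CACNG3 (adjusted p 0.0267) and -1.19 ± 0.38 for SCN4B (adjusted p 0.049). In the sums over all cells the fall of CACNB2 and CACNB4 in 3-D and the rise of SCN4B were thus smaller between 3DFusi and 2DCocu than between 3DMono and 2DMono. Inside excitatory neuron-like cells the interaction was not tested. There CACNB4 had the same log2 difference in both pairs, and CACNG3 rose more in 3DFusi than in 3DMono. CACNB2 and CACNA2D3 fell less in 3DFusi there, as in the sums over all cells. With no filter on low counts SCN4B, CACNB4 and CACNG3 did not pass (adjusted p 0.121, 0.0517 and 0.111). With tags summed per number SCN1A, SCN4B, CACNB4 and CACNG3 did not pass (adjusted p 0.171, 0.244, 0.0636 and 0.182).

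In the treated arrangements the question was which subunits differ between a treatment word and Vehic. In 2DCocu, 8 of 31 members tested were higher in AcCoc than in Vehic and none lower, where 6.1% of all 21032 genes passed (3.6% higher and 2.5% lower). The same arrangement gave 4 higher and none lower in AcMor, where 0.975% of all genes passed (0.685% higher and 0.29% lower). The median log2 difference of the members was 0.21 and 0.24, against -0.00 and 0.01 for all genes. Both comparisons use the same 4 Vehic tags, so they are not independent of each other. For each gene the 4 tag values of a group are listed in order of tag number.

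The 4 genes higher in AcMor, with the same Vehic tags, were also higher in AcCoc: the pores SCN2A and CACNA1E and the auxiliary subunits SCN3B and CACNA2D3. SCN2A read 35.98, 45.1, 44.4 and 42.97 CPM in AcCoc, 57, 36.4, 38.4 and 34.4 CPM in AcMor and 24.2, 27.2, 14.9 and 30.99 CPM in Vehic. Its difference from Vehic was 0.84 ± 0.18 in AcCoc (adjusted p 0.0118) and 0.80 ± 0.18 in AcMor (adjusted p 0.0448), and no treated tag fell to the Vehic range. CACNA1E read 357, 331, 498 and 473 CPM in AcCoc, 429.6, 391, 484 and 387 CPM in AcMor and 257, 244, 218 and 253 CPM in Vehic. Its differences were 0.82 ± 0.13 (adjusted p 0.00247) and 0.84 ± 0.13 (adjusted p 0.0102), again without overlap. SCN3B, a sodium channel beta subunit, read 28.5, 27.6, 38.7 and 39.3 CPM in AcCoc, 35.96, 34.3, 32.1 and 24.02 CPM in AcMor and 20.7, 17.9, 11.3 and 15.8 CPM in Vehic. Its differences were 1.06 ± 0.17 (adjusted p 0.00271) and 0.97 ± 0.17 (adjusted p 0.0176), without overlap. CACNA2D3 read 180.4, 175, 240.1 and 226 CPM in AcCoc, 258, 227, 243 and 195 CPM in AcMor and 152, 145, 117 and 154 CPM in Vehic. Its differences were 0.58 ± 0.12 (adjusted p 0.0088) and 0.74 ± 0.12 (adjusted p 0.0109), also without overlap.

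The other 4 genes passed in AcCoc only; whether AcCoc differed from AcMor was not tested. CACNB4 read 194, 233, 343 and 399 CPM in AcCoc and 152, 170.1, 114 and 172 CPM in Vehic (log2 difference 0.99, SE 0.19, adjusted p 0.00721). SCN3A read 38.3, 34.97, 41.5 and 36.95 CPM in AcCoc and 30.8, 26.03, 19.2 and 29.7 CPM in Vehic (log2 difference 0.56, SE 0.14, adjusted p 0.0276), and SCN8A 139, 128, 146 and 139 CPM and 113, 108, 87.9 and 125 CPM (log2 difference 0.39, SE 0.10, adjusted p 0.0263). These 3 did not overlap. CACNA1B read 66.9, 78, 111 and 116 CPM in AcCoc and 65.02, 64.1, 46.8 and 76.4 CPM in Vehic (log2 difference 0.61, SE 0.17, adjusted p 0.0392), with overlap. Without AcCoc tag 3, Vehic tag 2 or Vehic tag 3, 5 members passed in AcCoc, and without AcMor tag 1 or 2, 2 members passed in AcMor. In 1 fit over all 4 treated arrangements, which then share an estimate of the spread, no member passed in either comparison, with adjusted p-values of 0.104 to 0.473 for the 8 genes in AcCoc and 0.666 to 0.703 for the 4 in AcMor. CACNA1B, SCN8A and SCN3A lost their AcCoc call under 11, 6 and 4 of 18 alternatives, and SCN2A and SCN3B their AcMor call under 9 and 4. With the tag number as a block the adjusted p in AcMor was 0.0629 for SCN3B and 0.0909 for SCN2A. That of CACNA1B in AcCoc was then 0.0512.

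The share of neuron-like cells and the share of mitochondrial counts moved with these groups. Neuron-like cells made up 10.1% to 21.4% of the Vehic tags, 39.1% to 51.9% of the AcCoc tags and 41.04% to 45.2% of the AcMor tags. The 8 neuron markers summed to 1748 to 2739 CPM in Vehic, 2826 to 3259 CPM in AcCoc and 2612 to 3241 CPM in AcMor. In AcCoc 5 of 8 neuron markers and 6 of 8 excitatory markers were higher, and in AcMor 2 of 8 and 3 of 8. Mitochondrial genes took 1.87% to 3.06% of counts in Vehic, 3.83% to 4.29% in AcCoc and 3.96% to 4.51% in AcMor. Their part in the result was not tested, other than by the sums inside 1 class given next.

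Measured inside excitatory neuron-like cells, none of the 8 genes passed in AcCoc. Of 26 members tested there none passed (3 at an unadjusted p under 0.05), where 0.101% of all 12854 genes passed (0.0233% higher and 0.0778% lower); DESeq2 called 1. The log2 differences of the 8 were 0.32 for SCN2A, -0.09 for SCN3A, 0.02 for SCN8A, 0.22 for SCN3B, 0.46 for CACNA1B, 0.18 for CACNA1E, 0.16 for CACNA2D3 and 0.08 for CACNB4. The largest other differences there were -0.74 for CACNG2 (88.8, 66.4, 79.7 and 102 CPM in AcCoc against 124, 94.5, 160.1 and 208 CPM in Vehic), -0.71 for CACNA1G, -0.66 for CACNG5 and 0.44 for CACNG8. CACNA1G read 19.6, 8.36, 7.12 and 17.02 CPM in AcCoc and 17.8, 32.6, 6.81 and 16.8 CPM in Vehic, and CACNG5 6.21, 4.63, 2.64 and 2.98 CPM and 6.46, 6.63, 3.405 and 9.61 CPM. CACNG8 read 43.5, 38.6, 47.1 and 42.6 CPM in AcCoc and 37.1, 33.1, 17.03 and 28.8 CPM in Vehic, and CACNA1B 99.9, 113, 139 and 144 CPM and 67.3, 119, 63 and 106 CPM. The 4 AcCoc tags of CACNG8 lay above all Vehic tags, and the groups overlap in the others. In AcMor 1 of 26 passed, where 0.0856% of all genes passed (0.0311% higher and 0.0545% lower): CACNG2 read 62.04, 77.5, 72.8 and 60.2 CPM in AcMor against 124, 94.5, 160.1 and 208 CPM in Vehic (log2 difference -1.02, SE 0.20, adjusted p 0.0445), all AcMor tags below all Vehic tags. That call was lost in 9 of the 12 refits that left out 1 tag (adjusted p up to 0.148). The 4 genes called in the AcMor sums over all cells differed there by 0.40 (SCN2A), 0.20 (SCN3B), 0.41 (CACNA1E) and 0.39 (CACNA2D3), without passing. In AcCoc the whole-tag differences of the 8 genes were 0.39 to 1.06, and those inside this class -0.09 to 0.46. Whether the 2 sets of differences differ was not tested. The Vehic tags held only 37 to 127 excitatory neuron-like cells, against 173 to 366 in the AcCoc tags.

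**Figure D5:**
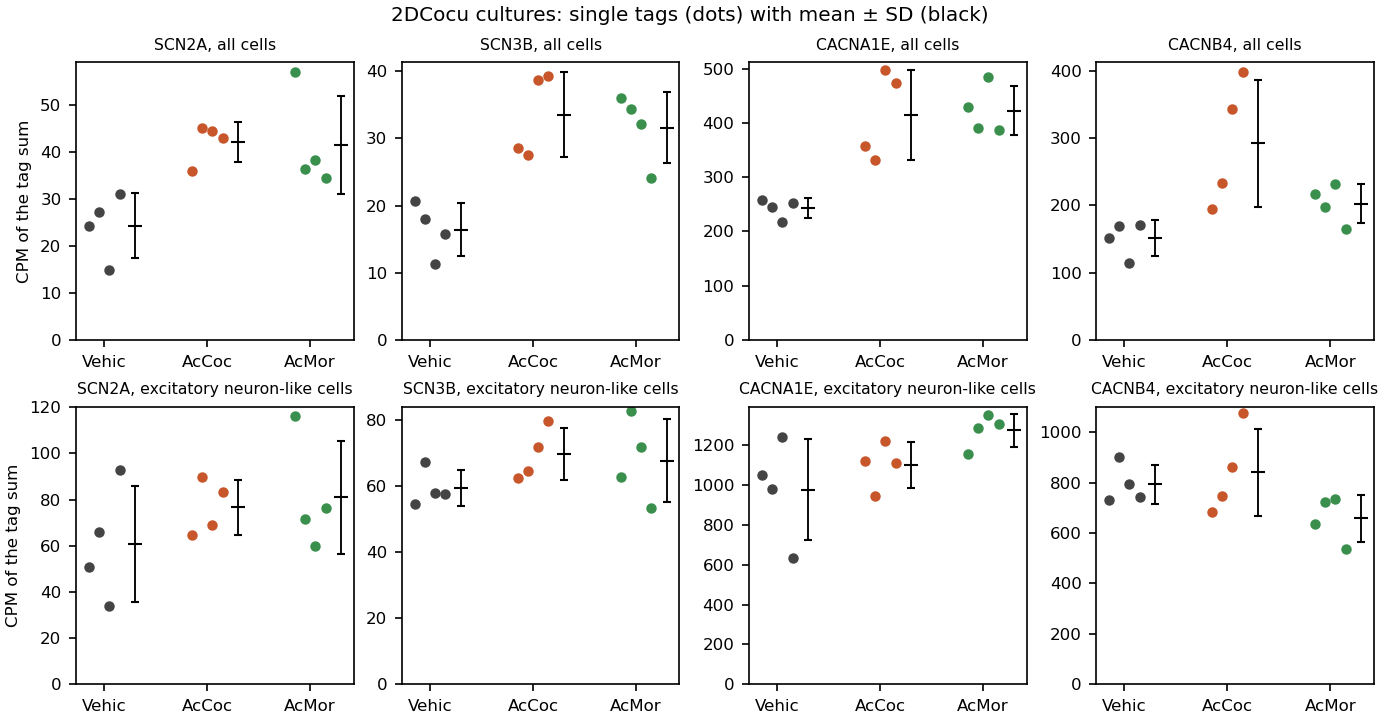
CPM of SCN2A, SCN3B, CACNA1E and CACNB4 in each 2DCocu tag by treatment word, over all cells (top row) and over excitatory neuron-like cells (bottom row); each point is 1 tag, and black marks give the mean ± SD. In the top row CACNA1E and SCN3B tags of AcCoc and AcMor all lie above those of Vehic.

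No member passed in the other treated arrangements, with 0% of all genes passing in each by edgeR's test. DESeq2 called 0 members in each as well. With no filter on low counts 1 or more passed in 2DMono and in 3DMono. In 3DMono 0 to 1 passed when a tag was left out. In 3DFusi, 1 of 34 members was at an unadjusted p under 0.05 in AcCoc and 0 in AcMor, against 393 and 177 of all 23679 genes. The largest AcCoc differences were in CACNA1S (1.94), CACNG5 (1.21), CACNG3 (-0.70), CACNA1I (-0.68) and SCN10A (0.60). CACNA1S read 0.460, 15.3, 0.562 and 0.0525 CPM in AcCoc and 0.896, 1.33 and 0.531 CPM in Vehic, where AcCoc tag 2, the tag with 2015 CPM of muscle markers, was far above the other tags. CACNG5 read 5.63, 13.02, 17.4 and 13.6 CPM in AcCoc and 4.53, 4.51 and 7.303 CPM in Vehic, and CACNG3 6.21, 2.902, 3.83 and 2.39 CPM and 10.9, 4.22 and 4.08 CPM, both with overlap. CACNA1I read 3.14, 4.24, 2.83 and 3.99 CPM in AcCoc and 3.96, 8.69 and 4.77 CPM in Vehic, and SCN10A 0.570, 1.12, 0.207 and 0.744 CPM and 0.166, 0.747 and 0.398 CPM. The 2 groups overlap in both genes. In AcMor the largest were CACNG3 (-0.87), CACNA2D3 (0.65), CACNA2D4 (-0.59), CACNA1S (-0.54) and CACNA1G (-0.49). CACNG3 read 4.83, 3.65 and 2.203 CPM and CACNA2D3 102, 321 and 199 CPM in AcMor, against 10.9, 4.22 and 4.08 CPM and 118, 153 and 144 CPM in Vehic. CACNA2D4 read 1.48, 3.17 and 3.02 CPM in AcMor and 3.77, 3.56 and 5.06 CPM in Vehic. Those of CACNA2D4 do not overlap, where 0% of all genes passed. CACNA1S read 0.648, 0.416 and 0.767 CPM in AcMor, and CACNA1G read 7.01, 25.7 and 21.7 CPM in AcMor and 14.9, 32.3 and 35.5 CPM in Vehic. Those of CACNA1G overlap. Since the numbers were taken to pair 3DFusi tags, these tags were also fitted with the number as a block, where no member passed. At an unadjusted p under 0.05 in that fit were SCN1A (log2 difference -0.76), SCN9A (0.45), CACNA1G (-0.53), CACNB2 (-0.32) and CACNG5 (1.06) in AcCoc and CACNA1G (-0.60), CACNB2 (-0.38) and CACNG3 (-0.69) in AcMor, each at an adjusted p of 1. Both comparisons use the same Vehic tags. The difference of CACNA1S in AcCoc was -1.22 (SE 0.61, adjusted p 1), opposite in sign to the fit without the block, and AcCoc tag 2 has no Vehic tag of its number.

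Whether the treatment difference differed between 2DCocu and 3DFusi was tested as an interaction. None of 33 members passed for either treatment word, and 5 were at an unadjusted p under 0.05 in each. Of all 23504 genes 0.00425% passed for AcCoc and 0% for AcMor. The differences of 3DFusi minus those of 2DCocu were largest for CACNA1S (1.43 ± 1.66), SCN2A (-1.16 ± 0.32), CACNB4 (-1.12 ± 0.34), CACNA1I (-1.09 ± 0.39) and SCN3B (-1.05 ± 0.32) in AcCoc. In AcMor they were largest for CACNG3 (-1.62 ± 0.57), CACNA1E (-1.17 ± 0.45), SCN2A (-1.08 ± 0.33), SCN2B (-1.06 ± 0.86) and CACNA1S (-1.05 ± 1.68). In 3DFusi SCN2A read 53.2, 44.8, 39.3 and 63.9 CPM in AcCoc, 39.5, 69.2 and 44.6 CPM in AcMor and 77.9, 60.7 and 53.7 CPM in Vehic. These groups overlap, where those of 2DCocu did not. There CACNB4 read 99.1, 74.4, 78.8 and 50.3 CPM in AcCoc and 81.6, 71.2 and 112 CPM in Vehic, and SCN3B 30.4, 32.6, 24.7 and 52.9 CPM and 34.2, 40.01 and 31.9 CPM. CACNA1E read 164, 203 and 140.5 CPM in AcMor and 318, 143 and 192 CPM in Vehic. These overlap in every case. In 2DCocu CACNG3 read 8.43, 5.32, 7.46 and 10.6 CPM in AcMor and 6.46, 4.95, 4.46 and 4.27 CPM in Vehic, and CACNA1I 5.07, 5.697, 6.85 and 6.16 CPM in AcCoc and 5.1, 3.77, 5.36 and 4.09 CPM in Vehic. Both overlap. SCN2B read 0.347, 0.293, 0.273 and 0.249 CPM in AcMor and 0.123, 0.175, 0.0320 and 0.233 CPM in Vehic of 2DCocu, and 0.729, 1.76 and 0.867 CPM and 0.716, 1.7 and 1.06 CPM in 3DFusi. CACNA1S stayed below 1 CPM in every 2DCocu tag. A member called in 2DCocu and not in 3DFusi is therefore not shown to differ between them.

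In 2DMono, 0 of 30 members were at an unadjusted p under 0.05 in AcDop and 2 in AcMor, against 467 and 1247 of 19416 genes. SCN3A had the largest difference in both, at 0.60 in AcDop and 0.89 in AcMor. It read 42.9 and 15.1 CPM in AcDop, 36.7 and 35.3 CPM in AcMor and 20.3 and 16.8 CPM in Vehic. The next were CACNA2D4 (0.55), CACNA1C (0.35), CACNA2D3 (0.34) and CACNB2 (0.33) in AcDop, and CACNA1B (0.57), CACNA2D1 (0.55), SCN8A (0.51) and CACNB3 (0.44) in AcMor. In AcDop and Vehic CACNA2D4 read 2.23 and 4.96 CPM and 2.78 and 2.15 CPM, and CACNA1C 595 and 548 CPM and 417 and 503 CPM. CACNA2D3 read 294 and 204 CPM and 204 and 194 CPM, and CACNB2 413 and 328 CPM and 286 and 314 CPM. The groups of CACNA2D4 and CACNA2D3 overlap and those of CACNA1C and CACNB2 do not, where 0% of all genes passed. In AcMor and Vehic CACNA1B read 68.6 and 62.9 CPM and 49.6 and 34.8 CPM, and CACNA2D1 773 and 707 CPM and 509 and 469.8 CPM. SCN8A read 164 and 153 CPM and 106 and 109.9 CPM, and CACNB3 12.7 and 7.73 CPM and 6.67 and 8.35 CPM. The groups overlap in CACNB3 and not in the other 3, in a comparison where 0% of all genes passed. How many of all genes separate with 2 tags a side was not counted, here or for 3DMono below.

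In 3DMono, 2 of 33 members were at an unadjusted p under 0.05 in AcDop and 7 in AcMor, against 740 and 1925 of 22112 genes. CACNA1S had the largest difference in both (-4.26 and -2.39). It read 0.305 and 0.342 CPM in AcDop, 1.45 and 0.579 CPM in AcMor and 0.788 and 12.2 CPM in Vehic, where Vehic tag 2 held 2544 CPM of muscle markers. CACNG2 differed by 0.54 in AcDop and 1.14 in AcMor, reading 30.4 and 13.7 CPM, 31.2 and 30.9 CPM and 17.4 and 12.6 CPM in AcDop, AcMor and Vehic. CACNA2D2 differed by 0.69 and 1.13, and CACNA1H by 0.84 and 1.01. SCN7A differed by -1.68 in AcDop and CACNB3 by 0.91 in AcMor. CACNA2D2 read 29.96 and 17.2 CPM, 35.9 and 23.1 CPM and 12.7 and 16.8 CPM in AcDop, AcMor and Vehic. CACNA1H read 67.8 and 64.3 CPM, 95.9 and 41.4 CPM and 24.7 and 50.4 CPM in the same order. In CACNA2D2 every AcDop and AcMor tag lay above both Vehic tags, and in CACNA1H 1 AcMor tag lay between them. SCN7A read 0.627 and 1.44 CPM in AcDop and 2.43 and 4.74 CPM in Vehic, and CACNB3 24.7 and 19.7 CPM in AcMor and 12.6 and 12.7 CPM in Vehic. Neither overlaps between its groups, where 0% of all genes passed in AcDop and in AcMor.

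Between the 3-D protocols 1For and 2Xia no member of 33 passed with all 6 tags (2 at an unadjusted p under 0.05, against 1603 of 20599 genes, 0% of which passed; DESeq2 called 0 members). The largest differences were CACNA1G (1.06), CACNA2D2 (0.87), CACNG5 (0.76), CACNG3 (-0.70) and CACNA1D (0.70). CACNA1G read 80.95, 66.3 and 26.6 CPM in the 1For tags and 13.1, 42.6 and 28.5 CPM in the 2Xia tags, and CACNA1D 215, 243 and 142 CPM and 93.7, 160.1 and 117 CPM. In both genes the third 1For tag was the lowest of its protocol and the second 2Xia tag the highest of its own. CACNA2D2 read 84.6, 38.5 and 50.9 CPM in the 1For tags and 19.1, 27.9 and 47.6 CPM in the 2Xia tags, CACNG5 3.49, 3.23 and 1.32 CPM and 2.23, 0.859 and 1.73 CPM, and CACNG3 1.18, 3.39 and 5.52 CPM and 2.55, 7.99 and 5.42 CPM. The protocols overlap in all 3. Without the tags 3DProto1For3 and 3DProto2Xia2 the muscle marker sums were 2147 and 2682 CPM in 1For against 46.69 and 45.48 CPM in 2Xia. These tags were left out after seeing their muscle markers and neuron-like share, so differences between the other 4 tags are given as a description, without p-values. The log2 difference was 5.20 for CACNA1S, 3.03 for SCN7A and 2.10 for CACNA2D4, each highest in muscle-like cells. It was 1.78 for CACNA1G, 1.37 for SCN9A and 1.09 for CACNA1D, and -1.27 for CACNG4 and -1.20 for CACNG2. These 8 of the 33 were past 1 in size on the log2 scale. How many of all genes were past 1 was not counted, so the 8 are not set against a background.

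Among the 2-D protocols 24 of 35 members differed in a joint test, where 39% of all 25637 genes passed. Neuron-like cells made up 42.27% and 42.01% of 2DProto2Fjo, 66.52% and 67.31% of 2DProto3Wu and 15.84% and 10.62% of 2DProto4Nic. Mesenchymal markers summed to 2157 and 2082 CPM in 2DProto4Nic, against 87.52 to 172.9 CPM in the other tags. Their part in the differences was not tested. In CACNG5 the 2DProto3Wu tags were lowest: they read 4.47 and 4.66 CPM, against 74.5 and 48.9 CPM in 2DProto2Fjo and 68.2 and 84.8 CPM in 2DProto4Nic (adjusted p 1.85e-06). CACNB4 was highest in 2DProto3Wu, at 138 and 128 CPM against 49.3 and 48.7 and 51.7 and 44.3 CPM (adjusted p 5.05e-05). CACNA2D1 was lowest there, at 153 and 125 CPM against 478 and 447 and 409 and 302 CPM (adjusted p 5.27e-05). SCN1A, SCN2A and SCN3A were highest in 2DProto3Wu. SCN1A read 38.8 and 52.5 CPM there against 12.2 and 11.9 and 13.2 and 7.48 CPM (adjusted p 0.000321). SCN2A read 168 and 190.1 CPM there against 133 and 136 and 47.7 and 30.4 CPM (adjusted p 0.000122). The 2DProto3Wu tags held 616 and 906 GABAergic neuron-like cells. In these cells SCN1A was below its whole-tag levels, at 24.46 and 31.96 CPM, and SCN2A above its own, at 230.4 and 247.7 CPM. In 2DProto2Fjo CACNA1E and CACNA2D3 were highest. CACNA1E read 447 and 368 CPM there against 207 and 197 CPM in 2DProto3Wu and 270.1 and 228 CPM in 2DProto4Nic (adjusted p 0.000449), and CACNA2D3 129 and 111, 39.4 and 27.6 and 61.6 and 56.8 CPM in the same order (adjusted p 9.53e-05). The other 17 called members follow, with the tags of 2DProto2Fjo, 2DProto3Wu and 2DProto4Nic in that order throughout the next paragraph; SCN8A lost its call under 6 of 10 alternatives and SCN7A, SCN10A, CACNA1B and CACNG7 under 4 of 10 each, CACNG2 under 3, CACNA1I under 2 and SCN3B, CACNG3 and CACNG4 under 1 (without the second 2DProto4Nic tag), and SCN11A, SCN2B, CACNA1D, CACNA1F, CACNA1G, CACNA1H, CACNA1S, CACNB1, CACNB2, CACNB3 and CACNG8 did not pass.

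Among these 17 the sodium channel genes were mostly lowest in 2DProto4Nic or highest in 2DProto3Wu. SCN3A read 34.6 and 31.7 CPM, 54.2 and 72.8 CPM and 24.01 and 13.7 CPM (adjusted p 0.00285), and SCN8A read 157 and 132 CPM, 158 and 164 CPM and 99.4 and 93.7 CPM (adjusted p 0.0315). SCN3B read 55.3 and 59.5 CPM, 61.2 and 57.8 CPM and 33.1 and 25.7 CPM (adjusted p 0.00953). Both SCN3A tags of 2DProto3Wu lay above all others, and both tags of 2DProto4Nic were lowest in each of these genes. SCN9A, the pore of sensory neurons, read 4.66 and 6.01 CPM, 26.4 and 16.4 CPM and 14.1 and 8.95 CPM (adjusted p 0.00268), and SCN7A, which encodes Nax, read 0.818 and 1.26 CPM, 2.13 and 2.85 CPM and 0.966 and 1.32 CPM (adjusted p 0.0451). Both were highest in 2DProto3Wu. SCN4B stood highest in 2DProto2Fjo, at 6.301 and 5.02 CPM, 0.929 and 1.37 CPM and 0.424 and 1.59 CPM (adjusted p 0.00235). SCN10A read 0.677 and 5.41 CPM, 0.601 and 0.0922 CPM and 0.346 and 0.283 CPM (adjusted p 0.0193), where the second 2DProto2Fjo tag was alone above 1 CPM; without that tag the adjusted p was 0.427. Of the pores of calcium channels, CACNA1A and CACNA1I were highest in 2DProto2Fjo, CACNA1B in 2DProto3Wu and CACNA1C in 2DProto4Nic. CACNA1A read 259.8 and 189 CPM, 103 and 92.7 CPM and 122 and 134 CPM (adjusted p 0.00038) and CACNA1I 12.97 and 8.11 CPM, 3.69 and 5.72 CPM and 2.71 and 4.57 CPM (adjusted p 0.0148). CACNA1B read 92.7 and 90.6 CPM, 136 and 128 CPM and 85.7 and 83.5 CPM (adjusted p 0.0185) and CACNA1C 458 and 362 CPM, 505 and 523 CPM and 537 and 645 CPM (adjusted p 0.00235). The auxiliary subunits were divided between the protocols as well. CACNA2D2 was highest in 2DProto3Wu, at 43.6 and 23.7 CPM, 68.6 and 67.6 CPM and 11.7 and 21.4 CPM (adjusted p 0.0033), and CACNA2D4 in 2DProto2Fjo, at 11.96 and 9.39 CPM, 2.27 and 2.77 CPM and 1.76 and 3.28 CPM (adjusted p 0.000545). Of the gamma genes, CACNG2 and CACNG3 were lowest in 2DProto4Nic. CACNG2 read 20.4 and 18.97 CPM, 21.3 and 28.1 CPM and 12.8 and 6.85 CPM (adjusted p 0.0335) and CACNG3 3.63 and 2.29 CPM, 2.23 and 3.33 CPM and 1.08 and 0.664 CPM (adjusted p 0.0159). CACNG4 read 91.4 and 67.9 CPM, 72.5 and 69.5 CPM and 87.05 and 107 CPM (adjusted p 0.00789) and CACNG7 32.6 and 28.2 CPM, 29.3 and 23.7 CPM and 30.96 and 36.7 CPM (adjusted p 0.0368), with tags of 2DProto4Nic overlapping those of 2DProto2Fjo in both.

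The 38 partner genes of these channels, which anchor them, modulate them or receive their calcium, were tested in the same fits. Between 3DMono and 2DMono 21 of 36 tested passed (10 higher and 11 lower) and between 3DFusi and 2DCocu 24 of 36 (11 higher and 13 lower), where 38.8% and 49.4% of all genes passed. RYR3, a calcium release channel of the endoplasmic reticulum, fell in both (-2.24 ± 0.11 and -2.22 ± 0.14, adjusted p 3.98e-09 and 2.97e-11). In the first pair STAC, an adaptor of L-type channels, and NALF1, a subunit of the sodium leak channel, fell (-2.25 ± 0.15 and -1.53 ± 0.11), while FGF13, which modulates sodium channels, rose (1.11 ± 0.10). In the second RYR2 fell (-1.21 ± 0.11) and the calmodulin gene CALM3 rose (1.77 ± 0.18).

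Inside excitatory neuron-like cells 15 of 32 and 16 of 29 partner genes passed in the 2 pairs, where 31.3% and 41.5% of all genes passed. RYR3 was lower in 3-D in both (-2.52 ± 0.11 and -1.88 ± 0.18), as was ANK2, an ankyrin that anchors channels (adjusted p 1.49e-06 and 1.42e-06). FGF14 and NALF1 were lower in 3DMono (-1.57 ± 0.11 and -1.12 ± 0.11), and CALM3 higher in 3DFusi (1.71 ± 0.20). In GABAergic neuron-like cells 13 of 28 passed, where 21.5% of all genes passed, led by falls of FGF12 (-1.51 ± 0.14), NALF1 (-1.59 ± 0.17), RYR3 (-1.95 ± 0.22) and UNC80 (-1.53 ± 0.22).

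In 2DCocu 11 of 36 partner genes were higher in AcCoc and 3 in AcMor, and none lower, where 3.6% and 0.685% of all genes were higher. UNC79, a subunit of the sodium leak channel complex, rose by 0.79 ± 0.13 in AcCoc and 0.64 ± 0.13 in AcMor, and CNTNAP2, an adhesion protein of axons, by 0.79 ± 0.15 and 0.65 ± 0.15. JPH4, a junctophilin that couples the endoplasmic reticulum to the membrane, rose by 0.79 ± 0.16 in AcCoc. No partner gene passed in the other treated arrangements or between the 3-D protocols by edgeR's test. At an unadjusted p under 0.05 were 0 of them in AcCoc and 0 in AcMor of 3DFusi, 3 in AcDop and 6 in AcMor of 2DMono, 0 in AcDop and 4 in AcMor of 3DMono, and 6 between the 3-D protocols; DESeq2's count was not taken for these genes. Among the 2-D protocols 22 of 36 passed, where 39% of all genes passed. In the interaction between the pairs 10 of 36 passed, where 9.98% of all genes passed, among them FGF13 (-0.90 ± 0.16), NRCAM (-0.96 ± 0.19), STAC3 (-1.26 ± 0.29) and STAC2 (-1.59 ± 0.38).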

How the data were processed

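Single-cell RNA of 46 culture tags was deposited by the authors as 1 matrix of expected counts, made with Salmon 1.7.0, alevin and Seurat 4.1.1 on hg38, per the submitters' processing notes; 54.3% of entries are whole numbers. Cells were assigned to tags by their names, and to classes by Leiden clustering (resolution 0.8) that left the channel genes, partner genes and markers out. Called doublets were kept. Counts were summed per tag, or per class in tags with 20 or more cells of it, rounded and tested with edgeR 4.0.16 (filterByExpr, TMM, robust quasi-likelihood test, Benjamini-Hochberg over all genes tested, 0.05). The tests were checked on simulated data for 3DMono against 2DMono and for AcCoc against Vehic in 2DCocu. Of changes of 1 on the log2 scale 65.3% and 67.7% were called, and of changes of 0.5 12.6% and 16.2%. False calls made up 6.33% and 8.79% of those called, somewhat above the threshold. Each simulation changed 100 genes by 1 and 100 by 0.5, out of 20190 and 21032 genes, with tags drawn independently. In the real comparisons 38.8% and 6.1% of genes passed, so these rates may not carry over to them. The other comparisons were not simulated. Alternatives were RLE scaling, no filter, no robust option, DESeq2 1.42.0, Vehic tags only, doublets removed, resolution 0.4, 1 fit over 4 arrangements, a replicate block, tags summed per number (chosen after seeing the data) and each tag left out.

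Same-number tags deviated together in 3DFusi (9 of 9 pairs, r 0.138 to 0.566), so there the numbers were taken to pair tags. In 3DFusi 8 of 24 pairs of unlike number also correlated above 0.1, so the pairing is not clear-cut. Per-tag values are printed for members past the threshold or, failing that, for the 5 largest differences. Partner genes are named from the 4 with the smallest adjusted p; some are not reported here. The members and lists were chosen with earlier results of these data known.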

Additional observations from a re-analysis of the deposited data

Results flagged for a closer look

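SCN1A, SCN4B, CACNA2D3, CACNB2, CACNB4 and CACNG3 are listed because their 3-D against 2-D difference itself differed between the pairs of arrangements, by edgeR's interaction test over the AcMor and Vehic tags (adjusted p under 0.05 over all genes tested). The value, from sums over all cells, is the log2 difference of 3DFusi from 2DCocu minus that of 3DMono from 2DMono. It was 0.92 for SCN1A, 1.21 for CACNA2D3, 0.83 for CACNB2 and 0.70 for CACNB4, and -1.19 for SCN4B and -2.31 for CACNG3. The 3DMono and 2DMono tags entering number 4 each. With no filter on low counts SCN4B, CACNB4 and CACNG3 did not pass, and with tags summed per number SCN1A, SCN4B, CACNB4 and CACNG3 did not.

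CACNA1S in the second AcCoc tag of 3DFusi, at 15.34 CPM, lay beyond Dixon's 95% critical value against the other 3 tags of its group, and that tag held 2015 CPM of muscle markers. It was the only such tag in the 44 sets of 4 tags checked, for 16 genes of 2DCocu and 3DFusi, and chance puts about 1 set in 20 beyond the value.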

How the results depend on the processing

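Counts of members past the threshold are given as the value under each alternative that moved them by over 1.5 times; for those the cause was not tested, except that the fits on Vehic tags alone use fewer tags. With Vehic tags only, 9 members passed between 3DMono and 2DMono and 9 between 3DFusi and 2DCocu, 7 in excitatory neuron-like cells of the latter and 3 in GABAergic neuron-like cells, and CACNG7 in 3DMono turned to -0.03. In 1 fit over all 4 treated arrangements 0 members passed for AcCoc or AcMor in 2DCocu. With no filter on low counts 1 passed for AcMor in 2DMono, 1 for AcDop and 6 for AcMor in 3DMono, 1 for AcCoc and 2 for AcMor in excitatory neuron-like cells of 2DCocu, and 3 in the interaction of the pairs, where 3 also passed with tags summed per tag number. DESeq2 called 1 for AcCoc in excitatory neuron-like cells. For the fits with no filter, the interaction with summed tags and DESeq2, the shares of all genes passing are not given here. These counts are therefore not set against a background. Without the tags 3DProto1For3 and 3DProto2Xia2 11 passed between the 3-D protocols, where 14.2% of 22580 genes passed. Those tags were left out after seeing their muscle markers and neuron-like share, so these counts are a description and not a test of the protocols. Also chosen after seeing the data were summing tags per number and leaving out tags of over 200 CPM muscle markers; the latter gave 14 and 17 in the whole-tag format comparisons. Leaving out each tag in turn gave 13 to 16, 14 to 17, 11 to 15, 13 to 15 and 8 to 12 in the 5 format comparisons as ordered in the report, 5 to 9 for AcCoc and 2 to 5 for AcMor in 2DCocu, 0 to 1 for AcDop (1 without Vehic tag 1) and AcMor (1 without AcMor tag 1) in 3DMono, 0 to 1 for AcMor in excitatory neuron-like cells, 18 to 22 among the 2-D protocols and 0 elsewhere.

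With the tag number as a replicate block 2 members passed for AcMor in 2DCocu, against 4 without it, and 7 against 8 for AcCoc; the block changed no count in the other treatment comparisons. The 3-D against 2-D comparisons were not fitted with a block. The numbers were taken to pair the tags only in 3DFusi, where 0 passed with or without the block. There 9 of 9 same-number pairs correlated above 0.1, but so did 8 of 24 pairs of unlike number. Elsewhere 1 of 12 same-number pairs in 2DCocu, 2 of 6 in 2DMono and 4 of 6 in 3DMono did so. In 2DMono and 3DMono each group holds 2 tags, whose deviations from the group mean are exact opposites. A pair of unlike number there has the r of a same-number pair with its sign turned, and each r is counted 2 times. In 3DMono same-number pairs ran from 0.062 to 0.237 and pairs of unlike number from -0.237 to -0.062 for that reason. These values cannot decide whether the numbers pair the tags of 2DMono or 3DMono.

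At this depth SCN4A passed the filter on low counts in no comparison, CACNA1F in 1, SCN10A in 3, and SCN2B and CACNA1S in 9 of 20. Values of the protocols rest on 2 or 3 tags each.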

Other observations

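Several of the largest channel levels lay in clusters that stayed unnamed, and were singled out after their values were seen. A cluster of 2545 cells led by THSD7B and RIT2 combined SCN2A at 217.5 CPM with CACNA1C at 1012 CPM, and held the highest SCN10A level of any cluster at 4.172 CPM. A cluster of 640 cells led by CLIC5 and DLK1 held the highest SCN1A level at 101.2 CPM, with SCN2A at 26.47 CPM. CACNG5 was the third of the leading genes of a cluster of 805 cells with cycling markers and DCT, where it stood at 237.8 CPM.

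SCN10A differed between partner tags of 1 group: it read 5.41 CPM in the second 2DProto2Fjo tag and 0.677 CPM in the first, against a median of 0.336 CPM over all 46 tags.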
